A study of Mus musculus with 12 samples.

Results

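Purkinje cells are the inhibitory output neurons of the cerebellar cortex, and in the neonatal mouse they lie beneath the external layer in which granule cell progenitors divide. They supply those progenitors with Sonic hedgehog, and they handle calcium through release from the endoplasmic reticulum by the inositol trisphosphate (IP3) receptor Itpr1, which its partner Car8 restrains, and through cytosolic buffers such as calbindin. The genes described here are 8 genes known for their expression in these neurons, namely Itpr1, Car8, Calb1, Pcp2, Pcp4, Foxp2, Rora and Shh. They were chosen by symbol from the 31091 genes of the deposited table and each matched 1 row. The 2 LIM homeobox genes of Purkinje cells, Lhx1 and Lhx5, are not among them.

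The isolated granule cell progenitors whose RNA was sequenced came from Znhit3 conditional knockout (cKO) mice and from control mice labelled wild type (WT) at postnatal day 3 (P3). Znhit3 encodes an assembly factor of small nucleolar ribonucleoproteins. Each group had 3 libraries, and the other 6 of the 12 samples of the series, from postnatal day 6, were not analysed here. The promoter that drives the deletion, the alleles the controls carry, the number of animals behind a library and their strain are unstated in the sources at hand. The p-values therefore measure only the spread between these libraries, which may be technical. The design asked how loss of Znhit3 acts in the progenitors, so transcripts of Purkinje cells are not the intended content of the samples.

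Znhit3 itself measured 4.03, 4.01 and 4.57 FPKM (fragments scaled to gene length and library depth) in the cKO libraries, against 9.15, 8.62 and 8.58 FPKM in the control libraries. Its difference was -0.91 ± 0.06 (SE) with a limma adjusted p of 0.00024, where a difference here and below is the cKO mean less the control mean of log2(FPKM + 1), a scale on which changes of low genes look smaller than they are. Reads of exons outside any deleted part enter the Znhit3 value. Depth ran between 29119803 and 40281292 counted reads in cKO libraries and between 32278245 and 52961445 in control libraries. The test covered the 13538 genes that averaged 1 FPKM or more, and calls were made at an adjusted p (Benjamini-Hochberg) under 0.05, which 19.1% of them reached. Markers of granule progenitors were abundant, with a summed level of 686 to 724 FPKM over 7 genes in cKO libraries and 862 to 925 FPKM in control libraries. The X-linked RNA Xist was at 23.7 to 24.6 FPKM in cKO libraries and at 50.2 to 56.4 FPKM in control libraries, and the Y-linked gene Ddx3y at 10.5 to 13.8 FPKM in cKO libraries and at 4.92 to 5.64 FPKM in control libraries. Every library thus held transcripts of both sexes, in a mix that differed between the groups and whose part in the results below was not tested.

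The Purkinje cell genes were present at low levels. In the order of their mean over the 6 libraries they ran Car8, Itpr1, Calb1, Rora, Pcp4, Foxp2, Pcp2 and Shh, and 4 of the 8, from Car8 to Rora, reached the mean of 1 FPKM needed for the test. Pcp4 lay just below that limit, with means of 0.858 FPKM in cKO libraries and 1.02 FPKM in control libraries, and Rora just above it, with 1.37 FPKM in cKO and 1.09 FPKM in control libraries. Car8 was above Itpr1, Itpr1 above Calb1 and Calb1 above Rora in 6 of 6 libraries, although the ranges of Car8 and Itpr1 and those of Itpr1 and Calb1 overlapped over the 6. Rora exceeded Pcp4 in 4 of 6 libraries and Pcp4 exceeded Foxp2 in 5 of 6, so these neighbours did not separate, while Foxp2 exceeded Pcp2 in 6 of 6 with ranges that overlapped slightly. Shh stood apart at the bottom, below Pcp2 in 6 of 6 libraries with no overlap.

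Of the 4 members tested, Itpr1, Car8 and Calb1 rose in cKO libraries and Rora did not pass, and none fell. Calls of higher genes made up 13.4% of all tested genes and calls of lower genes 5.74%. The median difference of the 4 was 0.27, beside 0.03 over all tested genes. In the fit without the 1 FPKM limit, the median over all 8 members was 0.16, beside 0.01 over all genes. All 4 had groups that did not overlap, with the cKO libraries above, which 27.3% of tested genes showed in that direction and 40.5% in either direction. Itpr1 alone was called when cKO library 1 or 3 or control library 2 or 3 was left out, and 2 members were called without cKO library 2 or control library 1. Summed over the 8 members, the level was 14.6, 14.5 and 15.1 FPKM in cKO libraries and 12.8, 11.2 and 11.2 FPKM in control libraries. Most of that sum was Car8, Itpr1 and Calb1, the members called higher, so it says little about the others. In bulk RNA, more cells of a type and more RNA per cell cannot be told apart.

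**Figure D1:**
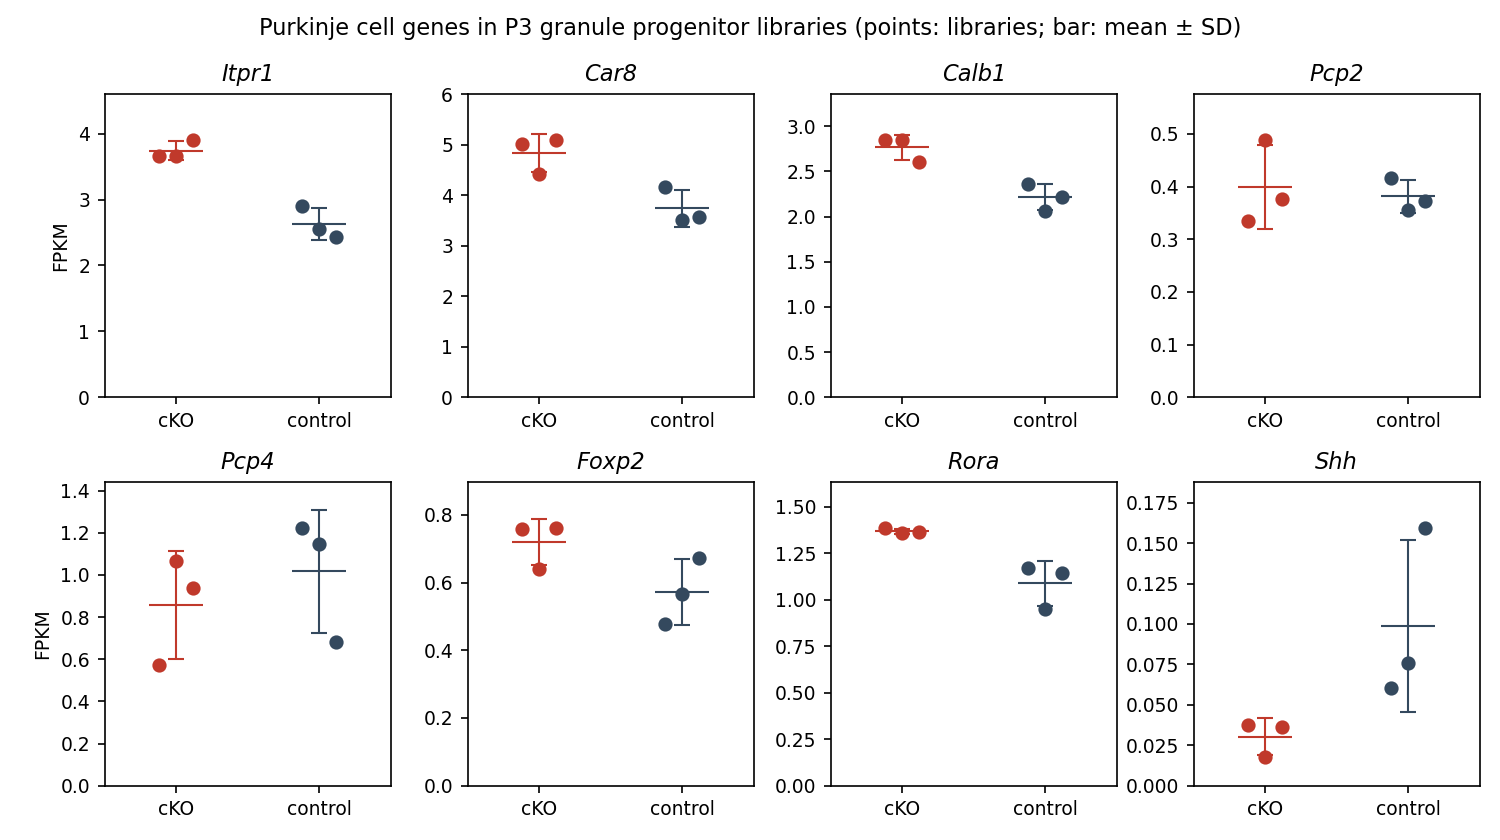
FPKM (vertical axes, each from 0) of the 8 Purkinje cell genes in the 3 cKO libraries (left, red) and the 3 control libraries (right, dark), with points for libraries and bars for the mean ± SD. The cKO points of Itpr1, Car8, Calb1 and Rora lie above all their control points, those of Pcp2, Pcp4 and Foxp2 overlap with controls, and those of Shh lie below.

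Itpr1 (ENSMUSG00000030102, chromosome 6, 108190057 to 108528070, plus strand, positions as the deposited table gives them) encodes the IP3 receptor of the Purkinje cell endoplasmic reticulum. It measured 3.66, 3.65 and 3.91 FPKM in the cKO libraries and 2.90, 2.55 and 2.43 FPKM in the control libraries. The lowest cKO value was above the highest control value, and the libraries within a group lay closer to each other than the groups did. The mean was 3.74 ± 0.14 FPKM in cKO and 2.63 ± 0.25 FPKM in control libraries (SD, n = 3 each), a ratio of 1.42. Its difference was 0.39 ± 0.07 (SE), with a limma adjusted p of 0.0079, and it rested on 1510 to 2696 reads per library. Itpr1 was called under 17 of 17 other settings, with differences between 0.30 and 0.51. The authors' deposited table gave Itpr1 a log2 fold change of 0.45 with an adjusted p of 3.3e-08.

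Car8 (ENSMUSG00000041261, chromosome 4, 8143362 to 8239041, minus strand) encodes a carbonic anhydrase-related protein without enzyme activity that binds Itpr1 and lowers its affinity for IP3. It was the most abundant member, with 5.02, 4.41 and 5.10 FPKM in the cKO libraries and 4.16, 3.51 and 3.56 FPKM in the control libraries. The groups did not overlap, and the highest control library came close to the lowest cKO library. The mean was 4.84 ± 0.38 FPKM in cKO and 3.74 ± 0.36 FPKM in control libraries (SD, n = 3 each), a difference of 0.30 ± 0.07 (SE) with a limma adjusted p of 0.029, on 436 to 727 reads per library. This call was lost under 6 of 17 other settings, including 4 of the 6 in which 1 library was left out. Limma adjusted p-values were 0.069 without cKO library 1, 0.084 without cKO library 3, 0.090 without control library 2 and 0.086 without control library 3. The authors' deposited comparison gave Car8 a log2 fold change of 0.32 with an adjusted p of 0.026.

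Calb1 (ENSMUSG00000028222, chromosome 4, 15881264 to 15908064, plus strand) encodes calbindin, the calcium-binding protein by which Purkinje cells are usually stained. It measured 2.85, 2.85 and 2.61 FPKM in the cKO libraries and 2.36, 2.06 and 2.22 FPKM in the control libraries. Again no cKO library was as low as any control library. The mean was 2.77 ± 0.14 FPKM in cKO and 2.21 ± 0.15 FPKM in control libraries (SD, n = 3 each), and the difference of 0.23 ± 0.07 (SE) had a limma adjusted p of 0.045, close to the threshold, on 323 to 570 reads per library. The call held under 6 of 17 other settings and was lost whichever of the 6 libraries was left out, with limma adjusted p-values between 0.057 and 0.135. In the authors' deposited table Calb1 had a log2 fold change of 0.27 and an adjusted p of 0.088.

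Rora (ENSMUSG00000032238, chromosome 9, 68561068 to 69295528, plus strand) encodes the nuclear receptor that is mutated in the staggerer mouse and directs Purkinje cell maturation. Its level was 1.38, 1.36 and 1.36 FPKM in the cKO libraries and 1.17, 0.948 and 1.14 FPKM in the control libraries. The cKO values were nearly equal to each other and above every control value. The mean was 1.37 ± 0.013 FPKM in cKO and 1.09 ± 0.12 FPKM in control libraries (SD, n = 3 each), a ratio of 1.26. On 400 to 792 reads per library, the difference of 0.18 ± 0.08 (SE) did not pass, with a limma adjusted p of 0.14. Voom on the recovered reads instead gave a log2 difference of 0.32 with adjusted p-values of 0.017 and 0.020 under its 2 filters. The other 15 of 17 settings did not call Rora. With a trend over gene length removed, its difference was 0.092 with a limma adjusted p of 0.455. The authors' deposited comparison gave Rora a log2 fold change of 0.27 with an adjusted p of 0.058.

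**Figure D2:**
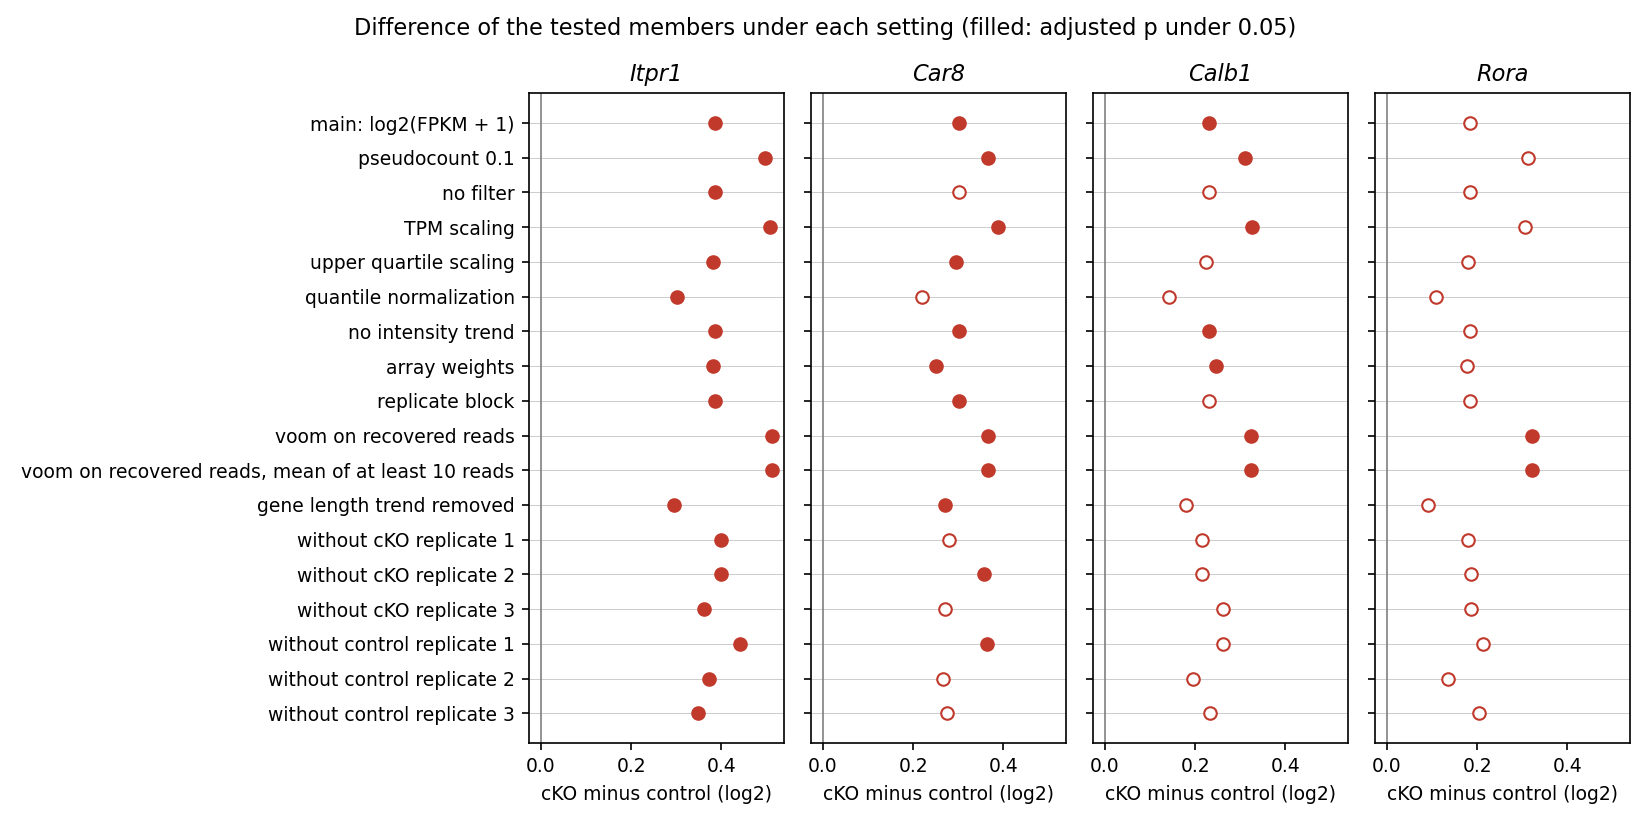
Difference of the 4 tested members (horizontal axes, cKO minus control on the log2 scale of each setting) under the main fit and 17 other settings (rows), with filled points where the adjusted p was under 0.05. Every point of Itpr1 is filled, while Car8 is open under 6, Calb1 under 11 and Rora under 15 of the other settings, and no difference is below 0.

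The other 4 members were below the test's limit, so they are given from limma without the filter, in which 4.09% of 31091 genes were called, and from voom on recovered reads in genes that averaged 10 reads or more, in which 15.0% of 18516 genes were called higher. Without the filter Itpr1 was the only member of the 8 that was called. In the voom fit 7 members were tested, and Itpr1, Car8, Calb1 and Rora were called higher. Foxp2, Pcp4 and Pcp2 were not called in either.

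Foxp2 (ENSMUSG00000029563, chromosome 6, 14901348 to 15441976, plus strand) encodes a forkhead transcription factor of Purkinje and cerebellar nuclear neurons. It had 0.760, 0.641 and 0.761 FPKM in the cKO libraries and 0.478, 0.567 and 0.672 FPKM in the control libraries. The groups overlapped, since control library 3 was above cKO library 2. The difference without the filter was 0.13 ± 0.08 (SE) with a limma adjusted p of 0.44, and voom gave 0.31 ± 0.13 (SE) on the log2 scale, its adjusted p being 0.089. Foxp2 is long, with 16346 exon bases, and so still rested on 299 to 582 reads per library.

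Pcp4 (ENSMUSG00000090223, chromosome 16, 96268806 to 96326993, plus strand) encodes a small protein that binds calmodulin. Its values were 0.572, 1.06 and 0.937 FPKM in the cKO libraries and 1.22, 1.15 and 0.681 FPKM in the control libraries. Each group held high and low libraries, and the groups overlapped widely. On 22 to 51 reads per library, voom gave -0.19 ± 0.36 (SE) on the log2 scale and an adjusted p of 0.76, an error that leaves room for a change in either direction.

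Pcp2 (ENSMUSG00000004630, chromosome 8, 3673371 to 3675545, minus strand) encodes a regulator of inhibitory G proteins that is found in Purkinje cells and in retinal bipolar cells, and it is the member most restricted to Purkinje cells within the brain. It had 0.335, 0.489 and 0.376 FPKM in the cKO libraries and 0.417, 0.356 and 0.372 FPKM in the control libraries. The groups overlapped, and both the lowest and the highest value were those of cKO libraries. On 20 to 36 reads per library, voom gave 0.07 ± 0.35 (SE) on the log2 scale and an adjusted p of 0.92.

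The reads given to Pcp2 are also uncertain in their origin. Pet100, which encodes a mitochondrial protein needed for assembly of cytochrome c oxidase, runs across all 2175 bases of Pcp2 on the other strand, and no source at hand states whether counting used strand. In the GENCODE M21 annotation of GRCm38, 941 of the 1828 exon bases of Pcp2 lie under exons of Pet100, or 51.5%, and 189 of its 483 coding bases, or 39.1%. Pet100 was about as abundant as Itpr1 and varied between libraries, with 4.31, 3.53 and 3.28 FPKM in the cKO libraries and 3.01, 4.21 and 4.83 FPKM in the control libraries, and its limma adjusted p was 0.71. Where strand is not used, reads of the 2 genes in these stretches cannot be told apart. The shared stretch that holds the start of the Pcp2 protein is printed below as an example, because a read from it could be given to either gene where strand is not used. It lies in GRCm38 at chr8:3625470-3625520, is written along the minus strand from an annotated Pcp2 transcript, and has the start codon in capitals.

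Pcp2 coding start under a Pet100 exon: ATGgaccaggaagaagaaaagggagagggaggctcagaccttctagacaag

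**Figure D3:**
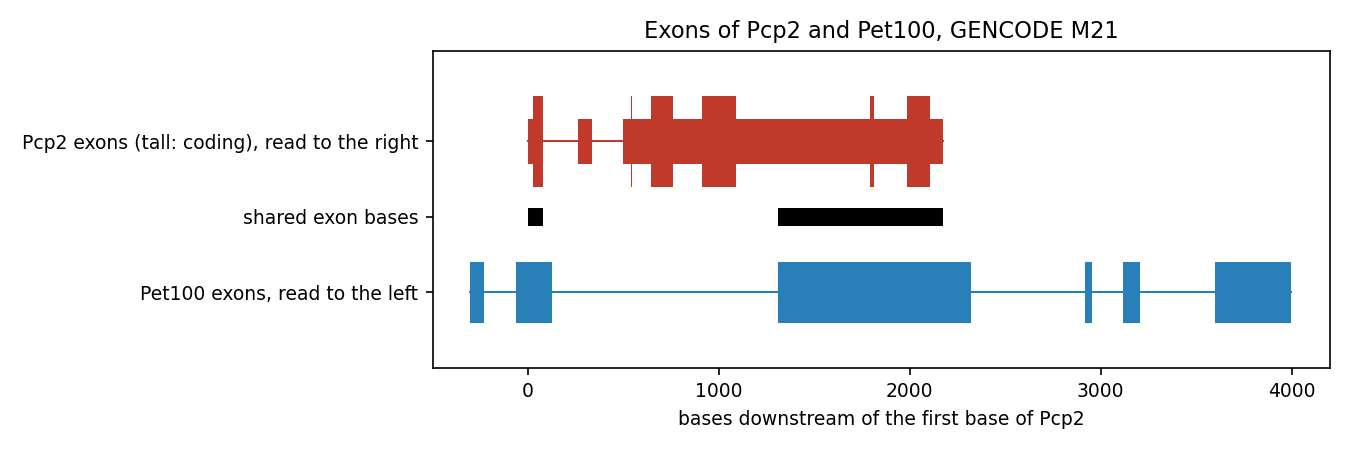
Exons of Pcp2 (top, tall where coding) and Pet100 (bottom) against the distance in bases from the first base of Pcp2, in GENCODE M21, with exon bases shared by both genes in black between them. The shared bases fall in the first exon and in the last part of Pcp2 and amount to 941 of its 1828 exon bases.

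Rora binds DNA at sites built on the letters AGGTCA, and in the mouse it is known to act on Pcp2, Pcp4, Itpr1 and Shh among others. RefSeq promoter windows (GRCm38.p6, 250 bases before to 50 after a gene's start) were at hand for 3 of the 8 members, Pcp2, Pcp4 and Rora. The letters AGGTCA, searched on both strands, occurred in 16.3% of 32851 windows. They were in 3 of the 4 Pcp2 windows, which overlap, and in the Pcp4 window, and were not in the Rora window. The windows of Pcp2 with the outermost start (chr8:3625498-3625797, minus strand) and of Pcp4 (chr16:96467356-96467655, plus strand) are shown because both genes are known to follow Rora, whose level in these libraries is given above while neither of them was called. Capitals mark AGGTCA, 12 bases before the Pcp2 start, and TGACCT, the same letters on the other strand, 164 bases before the Pcp4 start. A match of letters is a description and not a binding site.

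Pcp2 promoter window: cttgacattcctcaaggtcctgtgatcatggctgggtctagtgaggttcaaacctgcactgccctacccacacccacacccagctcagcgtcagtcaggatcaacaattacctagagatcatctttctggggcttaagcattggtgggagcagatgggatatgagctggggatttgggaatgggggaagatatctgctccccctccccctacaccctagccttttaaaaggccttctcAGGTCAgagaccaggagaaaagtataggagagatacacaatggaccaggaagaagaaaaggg
Pcp4 promoter window: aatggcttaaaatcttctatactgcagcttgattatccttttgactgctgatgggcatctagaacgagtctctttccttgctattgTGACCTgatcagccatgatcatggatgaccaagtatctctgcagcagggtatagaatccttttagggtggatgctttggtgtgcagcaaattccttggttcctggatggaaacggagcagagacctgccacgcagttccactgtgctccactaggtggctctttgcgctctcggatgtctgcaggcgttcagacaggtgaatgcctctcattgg

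Shh (ENSMUSG00000002633, chromosome 5, 28661813 to 28672254, minus strand) encodes the Sonic hedgehog ligand, the mitogen that Purkinje cells release to granule progenitors. It was close to absent, with 4, 2 and 3 reads in the cKO libraries and 7, 7 and 24 reads in the control libraries. These correspond to 0.037, 0.017 and 0.036 FPKM in cKO libraries and 0.060, 0.076 and 0.159 FPKM in control libraries, where 3 reads in a library stand for 0.0199 to 0.0362 FPKM. All cKO values were below all control values, as for 3.96% of the 17553 genes under the filter, and control library 3 held 24 of the 38 control reads. Over a group, Shh had 9 reads in cKO and 38 reads in control libraries. The exact 95% Poisson interval of control library 3 began at 0.102 FPKM, above the upper bounds of cKO libraries 1 and 2 at 0.0959 and 0.063 FPKM and just below that of cKO library 3 at 0.106 FPKM, while the intervals of the other two control libraries overlapped those of every cKO library. These intervals cover counting error only. Limma without the filter gave -0.09 ± 0.04 (SE) and an adjusted p of 0.27, and Shh had too few reads for the voom fit. The authors' deposited comparison gave Shh a log2 fold change of -1.79 ± 0.96 (SE) with an unadjusted p of 0.064. The adjusted p of 1.0 listed beside it was read as left out of the adjustment.

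The rest of the hedgehog route was measured at far higher levels. Of 19 genes that release, receive or respond to the ligand, 16 were tested, 4 rose, 1 fell and 11 did not pass, beside 13.4% higher and 5.74% lower among all tested genes, with a median difference of 0.05 beside 0.03 over all of them. Scube2, which helps to release the ligand, was at 8.21 ± 0.11 FPKM in cKO and 5.63 ± 0.18 FPKM in control libraries (SD, n = 3 each), a difference of 0.48 with a limma adjusted p of 0.00096. Hhip, a decoy receptor that binds the ligand, was at 4.39 ± 0.19 FPKM in cKO and 2.53 ± 0.30 FPKM in control libraries, a difference of 0.61 with a limma adjusted p of 0.002. The intracellular inhibitor Sufu and the protease Adam17 also rose, with differences of 0.18 and 0.19, and the co-receptor Boc fell, with a difference of -0.14. The response genes Gli1, at 36.2 FPKM in cKO and 35.7 FPKM in control libraries, and Mycn, at 79.5 FPKM in cKO and 80.2 FPKM in control libraries, did not pass. The receptor gene Ptch1, itself a target of the pathway, had 22.7 FPKM in cKO and 20.6 FPKM in control libraries with a limma adjusted p of 0.056.

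The IP3 and calcium route around Itpr1, Car8 and Calb1 was represented by 31 genes. Of these, 24 were tested, and 3 rose, 1 fell and 20 did not pass, near the shares of 13.4% higher and 5.74% lower among all tested genes, with a median difference of 0.05 beside 0.03 over all of them. Itpkb, which phosphorylates IP3, averaged 6.60 ± 0.45 FPKM in cKO and 5.11 ± 0.048 FPKM in control libraries (SD, n = 3 each), a difference of 0.31 with a limma adjusted p of 0.0086. Homer3, a scaffold that ties metabotropic glutamate receptors to Itpr1, and Plcb3, a phospholipase that makes IP3, rose with differences of 0.24 and 0.21. Calm2, which encodes calmodulin, fell to 592 FPKM in cKO libraries, against 738 FPKM in control libraries, a difference of -0.32 with a limma adjusted p of 0.0068.

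A wider set of 34 other genes enriched in Purkinje cells did not move in 1 direction. Of its 24 tested genes 4 rose, 3 fell and 17 did not pass, beside 13.4% higher and 5.74% lower among all tested genes, and its median difference was 0.09. The genes that rose were Homer3 and Plcb3, described above, Dab1, the adaptor of reelin signalling, at 4.47 ± 0.29 FPKM in cKO and 3.51 ± 0.35 FPKM in control libraries (SD, n = 3 each), and Lhx5. The calls of Dab1 and Plcb3 were lost under 8 of 17 and 9 of 18 other settings. Among the genes that fell was Foxp4, a forkhead relative of Foxp2, with 9.50 FPKM in cKO and 11.6 FPKM in control libraries and a limma adjusted p of 0.027. The LIM homeobox genes went opposite ways, with Lhx5 at 33.4 ± 1.8 FPKM in cKO and 21.2 ± 0.27 FPKM in control libraries and Lhx1 at 31.8 ± 1.5 FPKM in cKO and 39.1 ± 2.0 FPKM in control libraries (SD, n = 3 each), both called by limma with adjusted p-values of 0.0004 and 0.010. The count of higher genes in this set was 1 without cKO library 2 and 2 without control library 2 or control library 3. Levels within the set differed widely, from the abundant Lhx1 and Lhx5 to Skor2, a transcription regulator of young Purkinje cells, at 0.264 FPKM in cKO and 0.330 FPKM in control libraries and Ppp1r17 at 0.114 FPKM in cKO and 0.0894 FPKM in control libraries, and 8 of the 34 had a mean under 0.5 FPKM. Summed over the 34, the level was 212 to 215 FPKM in cKO libraries and 206 to 214 FPKM in control libraries.

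**Figure D4:**
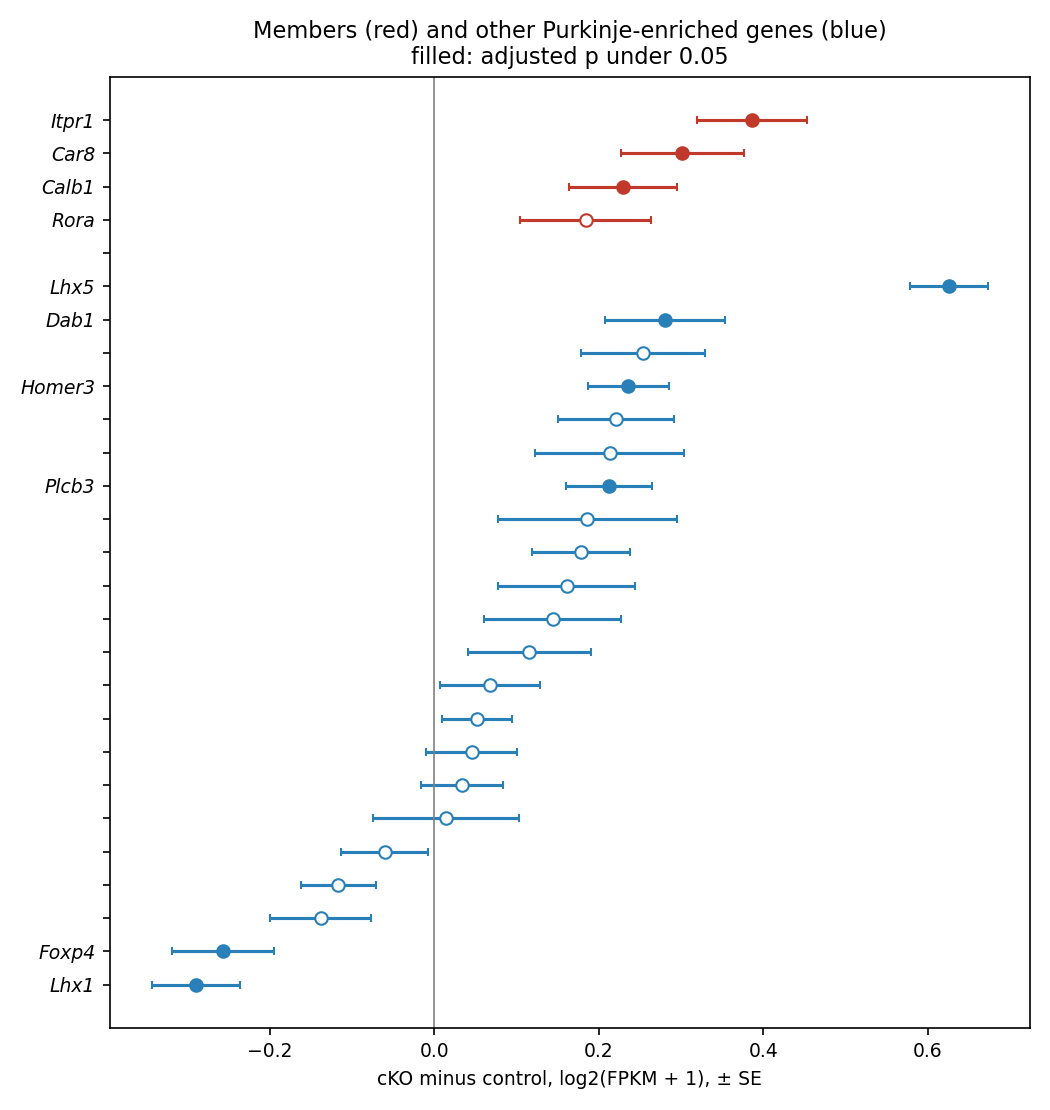
Difference (horizontal axis, cKO minus control, log2(FPKM + 1), ± SE) of the 4 tested members (red) and of 22 of the other tested genes enriched in Purkinje cells (blue), with filled points where the adjusted p was under 0.05 and names for the members and the filled points. The members lie between 0.18 and 0.39, while the other genes shown run from -0.29 for Lhx1 to 0.63 for Lhx5.

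Near-identical relatives could share reads with a member, so their levels were set beside it. None of 17 relatives shared an identical transcript stretch with its member longer than 35 bases, found between Foxp2 and Foxp1, while reads were 150 bases long. Of 10 relatives tested 3 fell, none rose and 7 did not pass, beside 5.74% lower and 13.4% higher among all tested genes. The 3 were Foxp4, Gpsm1, which like Pcp2 acts on inhibitory G proteins, at 28.3 FPKM in cKO and 31.9 FPKM in control libraries, and Pcp4l1, the relative of Pcp4, at 22.8 FPKM in cKO and 27.8 FPKM in control libraries, the last pair each with a limma adjusted p of 0.049. The calls of Gpsm1 and Pcp4l1 were lost under 10 and 11 of 18 other settings. Itpr2, the second IP3 receptor, had 2.71 FPKM in cKO and 2.21 FPKM in control libraries with a limma adjusted p of 0.10, and Calb2, which encodes calretinin, had 4.91 FPKM in cKO and 4.93 FPKM in control libraries. Gpsm3, at 2.32 FPKM in cKO and 1.59 FPKM in control libraries, had a limma adjusted p of 0.060. Car10, Car11, Gpsm2 and Foxp1 did not pass either. Itpr2 gained a call under 3 of 17 other settings and Gpsm3 under 4 of 17. In the voom fit at a mean of 10 reads, 2 relatives were called higher, beside 15.0% of all genes in it. They were Itpr2, at 0.31 with a voom adjusted p of 0.0089, and Rorb, at 0.56 with 0.018. Rorb, a relative of Rora, was below the 1 FPKM limit, at 0.590 FPKM in cKO and 0.396 FPKM in control libraries. Foxp4, Gpsm1 and Pcp4l1 were called lower there too.

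Markers of other cell types moved between the groups too, beside the 13.4% higher and 5.74% lower calls among all tested genes. All 6 of 6 GABAergic interneuron markers rose, with a summed level of 52.8 to 58.6 FPKM in cKO libraries and 34.3 to 38.0 FPKM in control libraries and a median difference of 0.66. Among them the GABA-synthesis gene Gad1 was at 11.2 FPKM in cKO and 6.28 FPKM in control libraries, the vesicular transporter gene Slc32a1 at 9.77 FPKM in cKO and 5.40 FPKM in control libraries, and Pax2, a marker of immature interneurons that Purkinje cells lack, at 15.1 FPKM in cKO and 8.68 FPKM in control libraries. Gad1 and Slc32a1 are also expressed in Purkinje cells, and the part of interneurons in the differences of the members was not tested.

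Beyond neurons, 8 of 8 endothelial markers rose, with a sum of 228 to 244 FPKM in cKO libraries and 128 to 141 FPKM in control libraries. Of 7 microglial markers 5 rose, with a sum of 175 to 199 FPKM in cKO and 142 to 145 FPKM in control libraries. The oligodendrocyte list had 6 of 7 markers higher, at 128 to 140 FPKM in cKO and 102 to 109 FPKM in control libraries. The astroglial list, which holds Bergmann glia, had 5 of 9 higher, at 889 to 922 FPKM in cKO and 848 to 870 FPKM in control libraries. Most of that sum was Fabp7, which did not pass, at 503 FPKM in cKO and 533 FPKM in control libraries. Choroid plexus markers went the other way, with 5 of 5 tested genes lower and a sum of 626 to 705 FPKM in cKO and 1340 to 1430 FPKM in control libraries, a sum made up mostly of Ttr. Among 7 granule progenitor markers 3 fell, namely Barhl1, Pax6 and Mfap4, and among 4 tested genes of differentiating granule cells Neurod1, Cntn2 and Cbln1 fell. Neither of the 2 tested unipolar brush cell markers, Eomes and Calb2, passed. Slc17a6, the only gene tested of the cerebellar nuclear list, rose with a difference of 0.24, from 8.51 FPKM in control to 10.2 FPKM in cKO libraries. The other 4 of that list had means under 0.5 FPKM, so this rise was not read as one of that cell type. The part of these cell types in the members' differences was not tested.

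**Figure D5:**
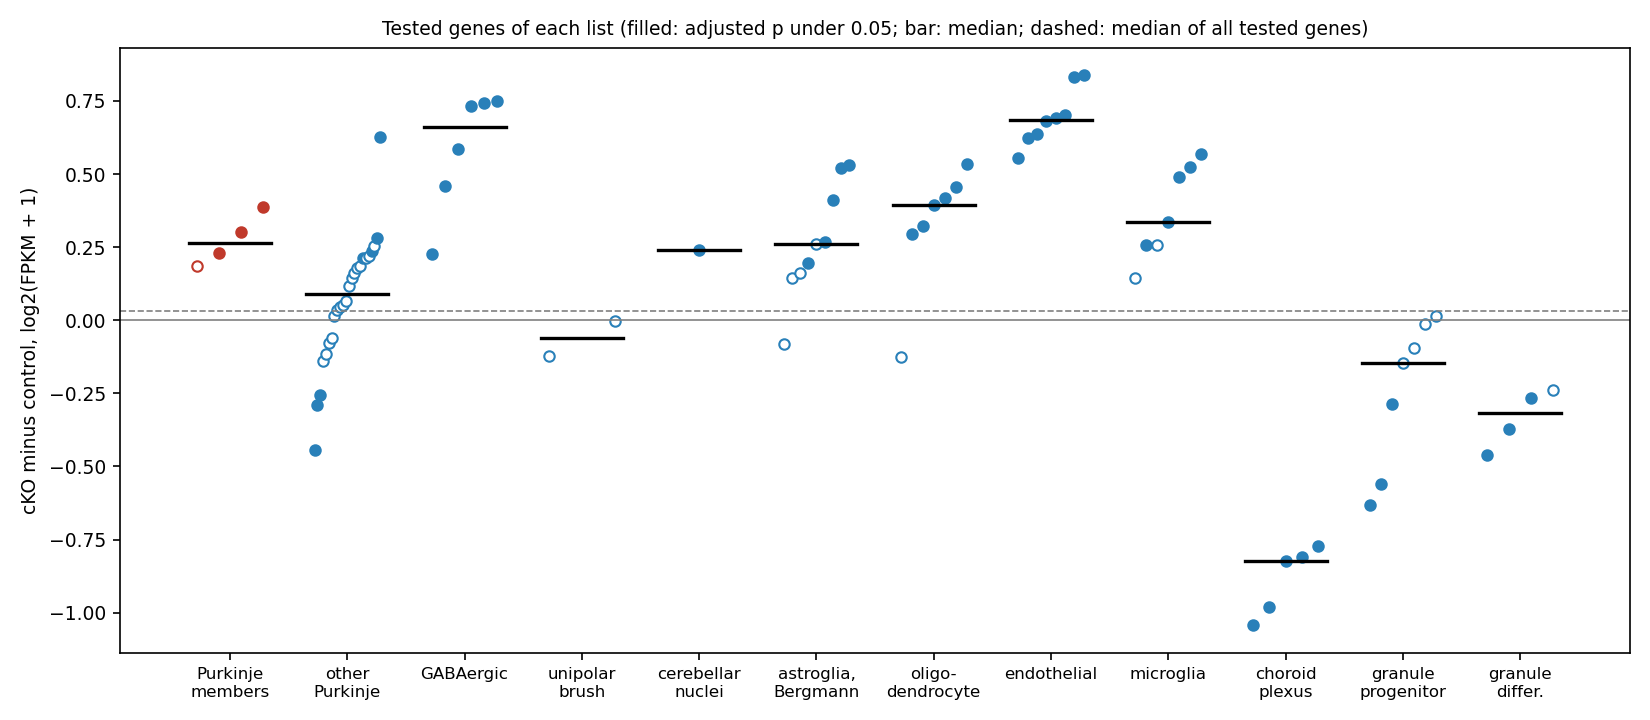
Difference (vertical axis, cKO minus control, log2(FPKM + 1)) of the 4 tested Purkinje members (left, red) and of the tested genes of other lists (blue). The blue lists are the wider Purkinje list and markers of other cell types. Filled points have an adjusted p under 0.05, and a bar marks each list's median. On this scale, where changes of low genes such as the members look smaller, the median of the 4 members, 0.27, lies near astroglia at 0.26. It lies below the medians of microglia at 0.34, oligodendrocytes at 0.39, GABAergic interneurons at 0.66 and endothelium at 0.69. It lies above those of the wider Purkinje list at 0.09 and of all tested genes at 0.03 (dashed).

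The neighbourhood of the members on the chromosome and the genes with the most similar profile were also listed. Within 50 kb, Sumf1, 27514 bases from Itpr1, rose with 9.29 FPKM in cKO and 7.80 FPKM in control libraries and a limma adjusted p of 0.025, and Stxbp2, near Pcp2, rose with 2.10 FPKM in cKO and 1.38 FPKM in control libraries and a limma adjusted p of 0.043, a call lost under 8 of 17 other settings. Decr1 and Nbn near Calb1, Ice2 near Rora, Rbm33 near Shh and Xab2, Camsap3 and Gm56004 near Pcp2 did not pass. Itpr1 was the only member with a large enough range over libraries for a search of similar profiles, and among 8296 genes the 2 closest over the 6 libraries were Gpcpd1, an enzyme gene of phospholipid breakdown, and Hbb-bs, a haemoglobin gene of red blood cells. Gpcpd1 averaged 17.8 FPKM in cKO and 13.3 FPKM in control libraries, at a root mean square distance of 0.0265 on the log2(FPKM + 1) scale after centring. Hbb-bs averaged 697 FPKM in cKO and 527 FPKM in control libraries, at a distance of 0.0286.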

How the data were processed

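Libraries of poly(A) RNA were marked with dUTP and sequenced as paired reads of 150 bases, per the labels' protocols. HISAT2 2.2.1, StringTie 2.1.6, cutadapt 1.9, edgeR, DESeq2 and the build mm10 stand in the submitters' processing notes without role or order, and the annotation and use of strand are unstated in the sources at hand. The authors deposited FPKM values per gene and library, with no pooling. The authors' own comparison, deposited in the same table, gives a log2 fold change with its error, a p-value and an adjusted p-value, per the file headers. Columns named WT were matched to controls by label, and the columns with the other prefix were taken as cKO because no other P3 samples are labelled. The positions in the table do not all match GRCm38, so their build is not stated, and they are printed as deposited.

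FPKM times the deposited gene length gave whole reads within 3e-08, the source of depths and read numbers. A count of 3 reads in 1 kb corresponds to 0.057 to 0.103 FPKM, for counting error only. R 4.3.3 and limma 3.58.1 served for the tests on log2(FPKM + 1), which used an intensity trend and no covariate in the 13538 genes that averaged 1 FPKM or more, with Benjamini-Hochberg adjustment over all of them. Alternatives were another pseudocount, other filters and scalings, no trend, array weights, a replicate block, voom on recovered reads, removal of a length trend and omission of each library. The voom fit with a mean of at least 10 reads was added after seeing the data. On simulated reads, the main fit recovered 6 of 48 genes changed 1.25-fold and 39 of 49 genes changed 1.5-fold. A gene that did not pass may thus have changed by such a fold. The simulated spread between libraries was a chosen setting. Libraries of a group differed by a chi-square per degree of freedom of 4.38 to 9.71, so none was counted as a duplicate.

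The members and the 14 gene lists were chosen with earlier results of these data known. Lists share genes, among them Homer3, Plcb3, Foxp1, Foxp4, Calb2, Gli1 and Mycn. The text names all members and Znhit3, up to 3 called genes of each list by smallest p or else the most abundant, all called genes of the wider Purkinje list, the relatives and neighbours that averaged 1 FPKM or more, and the 2 genes most like a member whose range was at least 0.5. Some genes that this rule names are not reported here or are given only in counts. Xist, Ddx3y, Skor2, Ppp1r17, Adam17, Boc, Gli1, Mycn, Ptch1 and Rorb were named after their values were seen.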

Additional observations from a re-analysis of the deposited data

How the results depend on the processing

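Itpr1 was called under all 17 settings that gave it a value, Car8 under 11, Calb1 under 6 and Rora under 2, both voom fits, and no setting turned the direction of these 4. The filter at a mean of 5 FPKM left no member to test. Of the members, 1 was called higher without the filter and 1 after quantile normalization, 2 with the replicate block, and 1 to 2 when a library was left out, against 3 in the main fit and 4 with voom. Over all genes the main fit called 1813 higher and 777 lower. The higher calls numbered 887 without the filter, 1126 at a mean of 5 FPKM, 1083 after quantile normalization, 1073 with the replicate block, 2779 with voom at a mean of 10 reads, 1116 with the length trend removed and 859 to 1487 without 1 library, lowest without cKO library 2. The lower calls numbered 384 without the filter, 1173 with array weights, 469 with the replicate block and 348 to 708 without 1 library. The share of calls that were higher, 70.0% in the main fit, was 81.7% after TPM scaling, 56.8% after quantile normalization and 55.0% with the length trend removed. The median of all genes was -0.0027 after quantile normalization and -0.0039 with the length trend removed. The median of the wider Purkinje list was -0.013 at a mean of 5 FPKM, and its calls ran from 1 to 7 higher and from 2 to 5 lower. The difference of Calb2 was 0.037 after TPM scaling, 0.042 with the length trend removed and -0.076 to 0.065 without 1 library, that of Foxp1 -0.045 after quantile normalization and -0.047 with the length trend removed, and that of Pet100 -0.23 to 0.036 without 1 library. Calls were also lost for Homer3 under 3, Foxp4 under 5, Sufu under 6 and Sumf1 under 6 of 18 settings. Deviations of same-numbered libraries correlated at -0.0244, 0.0356 and -0.0972, so the numbers were not taken as pairs. The cause of these shifts was not tested. Depth limits Pcp2, Pcp4 and Shh, with means of 27.8, 36.7 and 7.83 reads per library.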
